A study of Mus musculus with 17 samples.

Results

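Genes of the perinuclear theca and of the testis actin-like family were followed through mouse sperm formation. The set held 8 genes, chosen by name and found by NCBI Gene ID among the 24594 genes of the deposited gene table: the actin-like genes Actl7a, Actl7b, Actl9, Actrt2 and Actrt3, the actin-capping gene Capza3, and the calyx genes Cylc2 and Ccin. The rule uses no expression value, but the genes and the lists below were chosen with earlier results of these data known. Their counts beside those of all tested genes are therefore descriptions. All 8 were among the 13260 genes that passed the filter on low values, which asked for 1 RPKM (reads per kilobase of exon, scaled to library totals in M) in at least 3 of 15 libraries.

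RNA was sequenced from germ cells of C57BL/6JRj testes that had been digested and sorted by flow cytometry. The 5 stages had 3 libraries each. LZ stands for spermatocytes in leptotene/zygotene, PD for those in pachytene/diplotene, RS for round spermatids, and EES and LES for elongating spermatids, early and late; all came from males of 3 months labelled WT and were sorted on Hoechst and SYTO 16. A single library came from round spermatids of juveniles at 23 dpp (RS23), and another from elongating spermatids sorted for Prm1-EGFP (PrmES), for which Hoechst was the only stain. The labels give 3 months and WT for these as well. The title of RS23 contradicts the age, and that of PrmES, which names Prm1-EGFP, contradicts WT. Nothing in the labels ties the libraries of a stage to different animals, and the p-values therefore speak only of the spread among these samples, possibly a technical one.

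The perinuclear theca is a condensed cytoskeletal capsule around the sperm nucleus. Its front part lies between the acrosome and the nuclear envelope and holds the acrosome in place, and its rear part, the calyx, lies behind the acrosome and carries factors used at fertilization. The actin-like proteins resemble actin in sequence and are made mainly in spermatids. In mice, loss of Actl7a or Actl9 detaches the acrosome and impairs egg activation, loss of Actl7b disturbs sperm shaping, and loss of Cylc2 or Ccin damages the calyx and head shape.

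Totals were 90.6 to 137.8 M reads in the 15 libraries, 159.2 M in RS23 and 149.2 M in PrmES, of which the table's genes held 48.4% to 87.7%. Stage genes followed the labels in part. The meiotic recombinase Dmc1 had 46.3 to 74.9 RPKM in LZ and at most 3.26 RPKM elsewhere. Piwil1 had 104 to 127 RPKM in PD, and its highest value elsewhere was 62.5 RPKM, in LZ replicate 3. The transition protein Tnp1 had 14671 to 36638 RPKM in EES and 26948 to 34127 RPKM in LES, so it did not separate these stages. The acrosomal gene Acrv1 had 26.1 to 35.7 RPKM in RS and 95.2 RPKM in EES replicate 2. A pair of libraries stood apart from their stages. The summed level of 6 pachytene markers was 596 RPKM in LZ replicate 3, against 132 and 114 RPKM in LZ replicates 1 and 2. The summed level of 5 round spermatid markers was 622 RPKM in EES replicate 2, against 82.1 and 123 RPKM in EES replicates 1 and 3, and 323 to 359 RPKM in RS. In the same EES replicate 2 the 6 markers of elongating spermatids summed to 47332 RPKM, against 125022 and 107122 RPKM in EES replicates 1 and 3. Values without the library are given beside results that it moved most. Values are per unit of sequenced RNA, so fewer cells of a type and less RNA per cell cannot be told apart.

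The genes share features that the choice did not use. Of the 8, 5 (Actl7a, Actl7b, Actrt2, Cylc2 and Ccin) lie on chromosome 4, which holds 6.49% of the tested protein-coding genes. Likewise 5 (Actl7a, Actl7b, Actl9, Actrt2 and Ccin) have only single-exon transcripts in the Gencode annotation, against 2.66% of 11419 tested protein-coding genes. Actl7a and Actl7b are neighbours that are transcribed away from each other, and 1969 bases separate their starts. Promoter windows of 300 bases, from 250 bases before to 50 bases after the RefSeq start on GRCm38.p6, were at hand for 6 of the 8 genes, all except Capza3 and Cylc2. The cAMP-response element TGACGTCA, searched on both strands, was in the Ccin window and in 1.79% of all 32817 windows. TGATGTCA, which differs from it in a single base and was searched after the windows had been seen, was in the windows of Actl7a, Actl7b and Actl9 and in 3.62% of all windows. The shorter TGACG, which also lies within TGACGTCA, was in the windows of Actrt3 and Ccin and in 20.8% of all, TATAAA was in that of Actl9 and in 13.6% of all, and CAACTG was in none of the 6 and in 13.7% of all. A match describes letters and is no measurement of binding. The stretches from 120 to 22 bases before the start are shown for the 4 genes with an 8-base match, 5′ to 3′ on the strand of the gene, with the match in capitals:
Actl7a, chr4:56743302-56743400, plus strand: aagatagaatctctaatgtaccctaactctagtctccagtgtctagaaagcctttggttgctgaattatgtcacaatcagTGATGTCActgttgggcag
Actl7b, chr4:56741447-56741545, minus strand: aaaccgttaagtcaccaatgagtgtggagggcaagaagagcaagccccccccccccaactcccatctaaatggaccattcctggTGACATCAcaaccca
Actl9, chr17:33432779-33432877, plus strand: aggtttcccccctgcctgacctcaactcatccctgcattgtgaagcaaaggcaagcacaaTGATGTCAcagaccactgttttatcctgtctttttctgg
Ccin, chr4:43983384-43983482, plus strand: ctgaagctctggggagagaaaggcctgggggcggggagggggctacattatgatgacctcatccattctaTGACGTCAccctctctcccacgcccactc

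The match ran from 40 to 33 bases before the start in Actl7a, from 36 to 29 in Actl7b, where it reads in reverse complement, from 60 to 53 in Actl9 and from 50 to 43 in Ccin. Of these 4 genes, Actl7a and Ccin had a time course of the same form, while Actl9 and Actl7b each had another, as their levels below show.

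Levels of all 8 genes differed among the 5 stages (moderated F test in limma, Benjamini-Hochberg adjusted over all tested genes), as did those of 97.2% of the tested genes. Grouped by these values, their time courses had 3 forms. Actl7a, Actrt2, Actrt3, Capza3, Cylc2 and Ccin were lowest in PD, higher in RS and highest in elongating spermatids. Actl9 was already higher in PD than in LZ, stayed near that level in RS and was highest in elongating spermatids. Actl7b was higher in PD, highest in RS and low in LES. Over the 15 libraries, Pearson correlations of the deposited log2 values were 0.92 to 0.99 among the 6 genes of the first form, 0.73 to 0.85 between these and Actl9, and -0.05 to 0.26 between Actl7b and the other 7. Libraries of a stage are not independent points in these correlations, which describe the shape of the time course. The forms were set from the same values, so the correlations do not test that grouping.

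**Figure D1:**
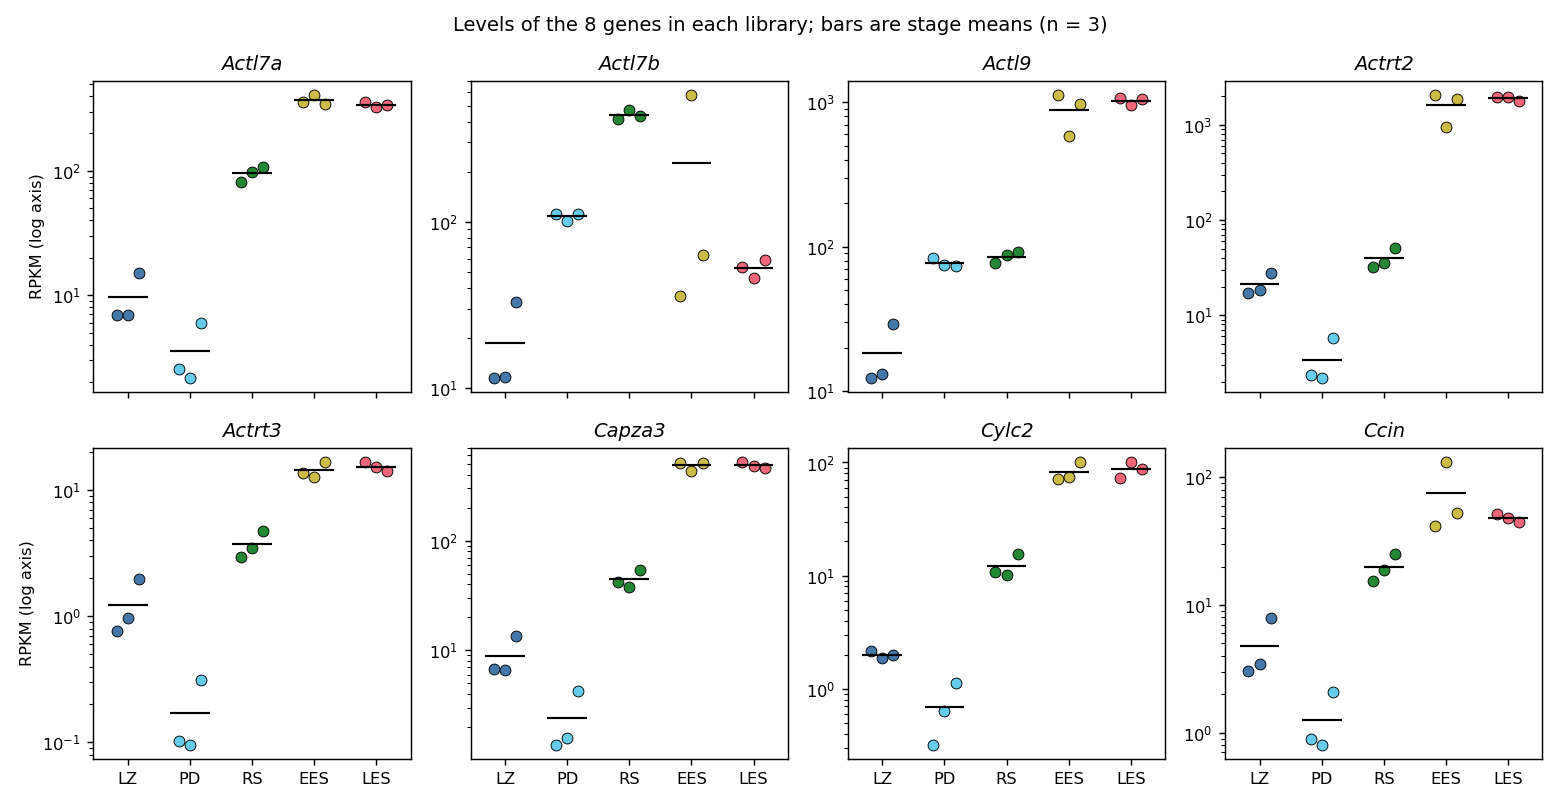
Level of each gene (RPKM, log axis, with a scale of its own per panel) in the 15 libraries by stage; points are libraries 1 to 3 from left to right and bars are stage means. Of the 8 genes, 6 are lowest in PD and high in EES and LES, Actl9 is level between PD and RS, and Actl7b is highest in RS apart from EES replicate 2 at 577 RPKM.

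Actl7a (chromosome 4, 56743413 to 56744925, GRCm38), which encodes an actin-like protein of the subacrosomal layer, had 6.96, 6.98 and 15.05 RPKM in LZ and 2.56, 2.16 and 5.92 RPKM in PD. It had 82.0, 97.1 and 106.8 RPKM in RS, 359, 406 and 345 RPKM in EES, and 355, 326 and 336 RPKM in LES. The libraries of neighbouring stages overlapped only between EES and LES. It stood at 25.7% of its highest stage mean in RS, so that among the genes of the first form it and Actrt3 (24.2%) and Ccin (26.2%) had the highest share there, while Actrt2 had 2.09%. The share of Ccin rests on its EES mean of 75.2 RPKM, which EES replicate 2 raised. Without that library its EES mean was 46.9 RPKM, below its LES mean of 48.3 RPKM. Against its RS mean of 19.7 RPKM, the share of Ccin would then be higher than the 26.2% given.

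Actl7b (chromosome 4, 56740005 to 56741443), its divergent neighbour, whose protein localises to the spermatid cytoskeleton, had 11.5, 11.7 and 32.9 RPKM in LZ and 111, 101 and 111 RPKM in PD. It had 415, 468 and 433 RPKM in RS, 35.5, 577 and 63.3 RPKM in EES, and 53.0, 45.9 and 58.9 RPKM in LES. EES replicate 2 was higher than any RS library, while EES replicates 1 and 3 lay below every PD library, to either side of the LES range. The EES mean was 225 ± 305 RPKM (SD, n = 3), and 49.4 RPKM without replicate 2. The stage order by mean was RS, EES, PD, LES and LZ, and EES overlapped both RS and PD because of that library.

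The ratio of Actl7a to Actl7b within a library sets the pair side by side, free of the library's total. It was 0.457 to 0.607 in LZ, 0.0214 to 0.0532 in PD and 0.198 to 0.247 in RS. It was 10.1 and 5.45 in EES replicates 1 and 3, 0.704 in EES replicate 2, and 5.70 to 7.10 in LES. Both genes were measured in round spermatids, with Actl7b the higher, and the order was the other way round in LES.

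**Figure D2:**
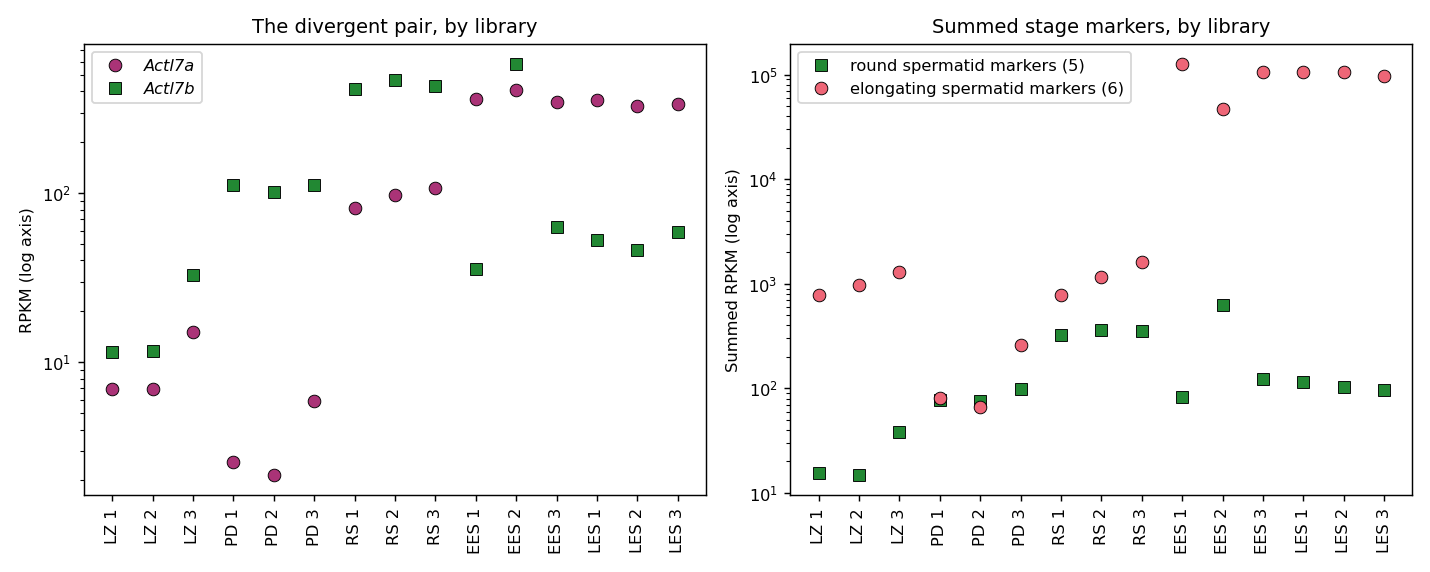
Left, Actl7a and Actl7b in each of the 15 libraries (RPKM, log axis); right, the summed level of 5 round spermatid and 6 elongating spermatid markers in the same libraries (RPKM, log axis). Actl7b lies above Actl7a in RS and below it in LES, and EES replicate 2 has both the high Actl7b value (577 RPKM) and the high round spermatid marker sum (622 RPKM).

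Actl9 (chromosome 17, 33432896 to 33434268), another actin-like protein of the theca that works with Actl7a, had 12.3, 13.1 and 29.3 RPKM in LZ, 83.6, 75.1 and 72.9 RPKM in PD, and 77.2, 87.0 and 91.3 RPKM in RS. It had 1117, 580 and 969 RPKM in EES and 1069, 958 and 1045 RPKM in LES. PD and RS overlapped, as did EES and LES, and EES replicate 2 was the lowest of the 6 elongating spermatid libraries.

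Actrt2 (chromosome 4, 154666433 to 154667867), an actin-related protein known from the calyx of bull and human sperm, reached the highest level of the 8 genes. It had 17.1, 18.6 and 27.7 RPKM in LZ, 2.34, 2.19 and 5.71 RPKM in PD, and 32.2, 35.6 and 50.7 RPKM in RS. It had 2046, 943 and 1884 RPKM in EES and 1965, 1937 and 1776 RPKM in LES, where its mean of 1892 ± 102 RPKM (SD, n = 3) ranked 20th of the 13260 tested genes. EES replicate 2 was again the lowest of the elongating spermatid libraries.

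Actrt3 (chromosome 3, 30597073 to 30599939), a related protein known to bind profilin 3 in mouse testis, had the lowest level of the set. It had 0.763, 0.962 and 1.99 RPKM in LZ, 0.102, 0.0958 and 0.312 RPKM in PD, and 2.93, 3.48 and 4.74 RPKM in RS. It had 13.7, 12.8 and 16.8 RPKM in EES and 16.7, 15.2 and 14.2 RPKM in LES. The PD values rest on 22, 23 and 84 reads, the fewest behind any stage of these genes.

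Capza3 (chromosome 6, 140041252 to 140042778), the sperm-specific alpha subunit of the capping protein that closes actin filament ends, had 6.72, 6.56 and 13.4 RPKM in LZ, 1.37, 1.60 and 4.30 RPKM in PD, and 42.1, 37.9 and 54.1 RPKM in RS. It had 513, 431 and 511 RPKM in EES and 521, 476 and 461 RPKM in LES. Its elongating spermatid libraries lay within a narrow range, 431 to 521 RPKM, and EES replicate 2 was the lowest of them.

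Cylc2 (chromosome 4, 51216678 to 51230272), a basic structural protein of the calyx, had 2.16, 1.86 and 1.97 RPKM in LZ, 0.318, 0.629 and 1.13 RPKM in PD, and 10.8, 10.2 and 15.7 RPKM in RS. It had 71.1, 74.6 and 101 RPKM in EES and 72.9, 100 and 88.0 RPKM in LES. It was the only gene of the 8 for which LZ replicate 3 was not the highest LZ library.

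Ccin (chromosome 4, 43983483 to 43985423) encodes calicin, a kelch-repeat protein of the calyx. It had 3.04, 3.45 and 7.96 RPKM in LZ, 0.898, 0.804 and 2.08 RPKM in PD, and 15.5, 18.7 and 25.0 RPKM in RS. It had 41.4, 132 and 52.4 RPKM in EES and 51.6, 48.4 and 44.9 RPKM in LES. EES replicate 2 was the highest of all 15 libraries, and without it the EES mean was 46.9 RPKM in place of 75.2 RPKM.

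In PD against LZ, 6 of the 8 genes fell and 2 rose, while 35.8% of all tested genes fell and 25.5% rose. A gene is said to rise or fall where limma's adjusted p (Benjamini-Hochberg, all tested genes) was under 0.05 with an absolute log2 difference of at least 1. Actl7b rose by 2.72 ± 0.75 on the log2 scale (SE here and below; adjusted p = 0.00561) and Actl9 by 2.20 ± 0.31 (adjusted p = 3.53e-05). Falls ran from -1.49 ± 0.36 for Actl7a (adjusted p = 0.00231) to -2.87 ± 0.42 for Actrt3 (adjusted p = 4.49e-05), and libraries of PD and LZ overlapped for none of the 8; over all tested genes they did not overlap for 34.8% that were higher and 46.3% that were lower in PD. All 8 kept the direction and the call without LZ replicate 3. The calls for Cylc2 and Actrt3 were lost with quantile normalization (-0.39, adjusted p = 0.234, and -0.93, adjusted p = 0.0280) and with a pseudocount of 1 RPKM (-0.85 and -0.90).

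The LZ levels of the 6 genes that fell came with transcripts of elongating spermatids in the same libraries. The 6 elongating spermatid markers, all measured and none at 0, summed to 66.6 to 258 RPKM in PD and 785 to 1310 RPKM in LZ. As a percentage of the LES mean, these markers stood at 0.0994% to 0.301% in PD and 0.881% to 1.61% in LZ, whereas the 6 genes stood at 0.180% to 2.61% in PD and 1.12% to 9.97% in LZ. The highest LZ shares were those of Ccin (9.97%), Actrt3 (8.05%) and Actl7a (2.85%), and the lowest that of Actrt2 (1.12%). Without LZ replicate 3 these shares were 6.72% for Ccin, 5.61% for Actrt3, 2.06% for Actl7a and 0.943% for Actrt2, and those of the markers 0.763% to 1.31%. The 9 Sertoli markers, of which 6 averaged at least 1 RPKM in LZ and none was at 0, summed to 1.78 to 2.59 RPKM in PD and 63.0 to 107 RPKM in LZ. The 7 spermatogonial markers summed to 2.74 to 2.88 RPKM in PD and 34.1 to 47.5 RPKM in LZ. The part of such transcripts in the LZ levels of these genes was not tested.

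In RS against PD, 7 of the 8 genes rose and none fell, while 23.4% of all tested genes rose and 15.2% fell. The largest rises were those of Actl7a (4.88 ± 0.36 on the log2 scale, adjusted p = 3.47e-07) and Actrt3 (4.55 ± 0.42, adjusted p = 1.88e-06), followed by Capza3 (4.38), Cylc2 (4.27), Ccin (4.07) and Actrt2 (3.65). The libraries of RS and PD did not overlap for any of the 7, as for 38.1% of tested genes in that direction. Actl7b rose by 2.02 ± 0.75 (adjusted p = 0.0416). That call was lost in 11 of 25 alternatives, with adjusted p from 0.0504 to 0.0967, although its lowest RS library (415 RPKM) lay far above its highest PD library (111 RPKM); the model uses 1 spread for all stages, and that of Actl7b includes EES replicate 2. Without that library the adjusted p was 0.000254. The difference for Actl9 was 0.14 ± 0.31 (adjusted p = 0.765), with overlapping libraries, and the p does not show that the levels were equal.

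In EES against RS, 7 of the 8 genes rose and Actl7b fell, in a comparison in which 15.8% of all tested genes rose and 54.9% fell. The median difference of all tested genes was -1.42 on the log2 scale, so that the genes stood 3.19 to 6.73 above that median where they rose. Actrt2 rose by 5.31 ± 0.38 (adjusted p = 1.73e-07), Capza3 by 3.45 ± 0.38 (adjusted p = 4.18e-06) and Actl9 by 3.33 ± 0.31 (adjusted p = 1.20e-06). Cylc2 rose by 2.76, Actrt3 by 1.97, Actl7a by 1.96 and Ccin by 1.77, with adjusted p from 1.69e-05 to 0.00426; without EES replicate 2 the rise of Ccin was 1.27 (adjusted p = 0.0150). None of these 7 had overlapping libraries, as 19.1% of tested genes in that direction. Rises made up 22.3% of all calls as deposited and 53.7% with each library centred on its median, and each of those 7 genes rose in both.

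The fall of Actl7b in EES against RS was -2.01 ± 0.75 (adjusted p = 0.0259), 0.58 below the median of all tested genes. Its EES libraries overlapped those of RS through EES replicate 2. Without that library the difference was -3.21 (adjusted p = 4.51e-06), and the call was lost when EES replicate 1 (-1.20, adjusted p = 0.135), EES replicate 3 (-1.61, adjusted p = 0.101) or any RS library was left out, and with median centring (-0.56, adjusted p = 0.348). The round spermatid markers, all 5 of them measured, summed to 82.1, 622 and 123 RPKM in the EES libraries and 323 to 359 RPKM in RS. Acrv1, an acrosomal gene of round spermatids, had 3.05, 95.2 and 8.14 RPKM in the EES libraries and 26.1 to 35.7 RPKM in RS. The part of round spermatid transcripts in the Actl7b and Ccin levels of EES replicate 2 was not tested.

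In LES against EES none of the 8 genes was called, and over all tested genes 1 rose and 0 fell in limma (0.00754% called; 919 genes, or 6.93%, had an unadjusted p under 0.05). Differences ran from -1.06 ± 0.75 for Actl7b to 0.30 ± 0.38 for Actrt2, with adjusted p of 0.882 or more, and the libraries of LES and EES overlapped for all 8, where 6.62% of tested genes were higher and 1.54% lower in LES with no overlap. Without EES replicate 2 the Actl7b difference was 0.14 and that of Ccin 0.05.

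LES was also set against RS, which leaves out the EES libraries from the means compared. Again 7 genes rose and Actl7b fell, with 17.4% of all tested genes rising and 55.4% falling. Actl7b fell by 3.06 on the log2 scale (SE 0.75, adjusted p = 0.00208), 1.64 below the median of all tested genes (-1.43), and its libraries did not overlap. No overlap was found in that direction for 63.2% of tested genes, and in the direction of the rises for 22.5%. This call held in all 25 alternatives, with adjusted p up to 0.0164. The rises ran from 1.32 ± 0.48 for Ccin (adjusted p = 0.0218) to 5.61 ± 0.38 for Actrt2 (adjusted p = 1.25e-07). The Ccin call was lost without RS replicate 1 (1.16, adjusted p = 0.0726), RS replicate 2 (1.29, adjusted p = 0.0516) or LES replicate 1 (1.27, adjusted p = 0.0559).

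**Figure D3:**
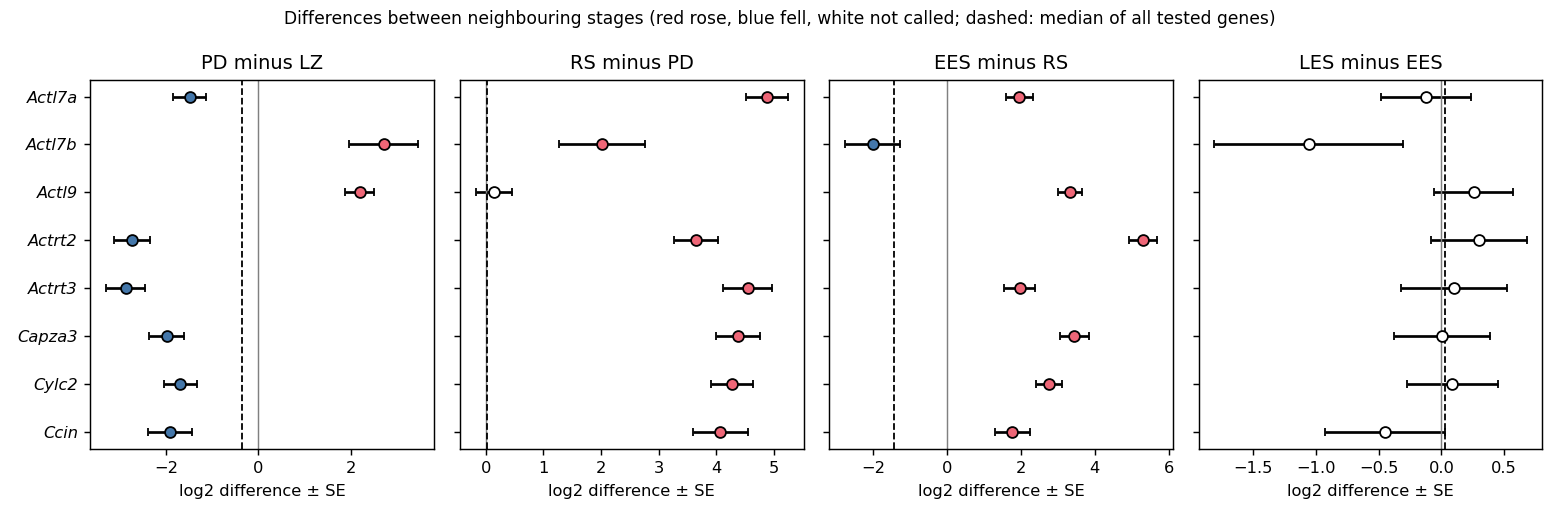
Differences between neighbouring stages for each gene (log2, later minus earlier stage, points with SE bars from limma over 15 libraries); red marks a rise, blue a fall, white no call, and the dashed line the median of all tested genes. In EES minus RS the 7 rises lie far right of the dashed line at -1.42, and in LES minus EES no gene is called.

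The level of Actl7b can include reads of an overlapping gene. The Gencode gene Gm26657 lies on the opposite strand across most of the Actl7b exon, where 1259 of 1390 50-base words of Actl7b are its reverse complement. Capza3 shares 58 such words with Plcz1, but they lie in a shorter Gencode transcript of Capza3; the other transcript, whose 1222 bases equal the exon length used in the gene table, shares no base with Plcz1 exons. No 50-base word of the Gencode transcripts of the other 6 genes was found in another gene, and for Cylc2 this covers 1931 bases where the gene table used 3311. Strandedness is not given in the sources used here, so reads of the opposite strands cannot be told apart. In the deposited de novo models, 7 loci on the opposite strand overlap exons of these genes, and 1 of them, in Cylc2, lies wholly inside them; it had 65.9 RPKM in EES replicate 1, where Cylc2 had 71.1 RPKM. The other 6 have 9.37% to 89.3% of their bases inside those exons. The one with 89.3%, in Actrt3, had 20.1 RPKM in that library, where Actrt3 had 13.7 RPKM, and a second Actrt3 locus had 9.65 RPKM. The loci at Actl7a, Actrt2 and Capza3 had 73.7, 302 and 98.7 RPKM, below the 359, 2046 and 513 RPKM of the genes. The locus at Actl7b is the de novo model of Actl7a itself, with 13.9% of its bases inside the Actl7b exon. It had 101 RPKM, where Actl7b had 35.5 RPKM and Actl7a 359 RPKM. The de novo model of Actl7a reaches across the Actl7b exon on the opposite strand, and its values may mix both genes. This model had 17.7 to 20.3 RPKM in PD and 3.97 to 8.83 RPKM in LZ, a log2 difference of 1.87 where the gene table gave -1.49.

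The other genes of the theca and of acrosome anchoring, a list of 19 that were all tested, included risers and fallers. In EES against RS 13 rose, 3 fell and 3 were not called, where 15.8% of all tested genes rose and 54.9% fell, and their median log2 difference was 1.93, against -1.42 for all tested genes. Without EES replicate 2, a count added after the data had been seen, 13 rose and 6 fell, the added falls being those of Actl10, Spaca1 and Fam209. The median of the list was then 1.61, against -1.74 for all tested genes. With LZ replicate 3 left out as well, 2057 of the 13260 tested genes rose and 8000 fell. In RS against PD 14 rose and none fell, where 23.4% of all tested genes rose and 15.2% fell, with a median of 4.28, against 0.02 for all tested genes. In PD against LZ 5 rose and 12 fell, where 25.5% of all tested genes rose and 35.8% fell, with a median of -2.15, against -0.36 for all tested genes. Without LZ replicate 3, 5 rose and 11 fell, with a median of -1.93, against -0.26 for all tested genes. With EES replicate 2 left out as well, 3905 of the 13260 tested genes rose and 4768 fell. The 4 with the highest levels were Fabp9, a fatty acid-binding protein known from the rat theca, with 3028 ± 271 RPKM in LES (SD, n = 3 here and below), H2bl1, a testis histone H2B variant, with 1467 ± 125 RPKM in LES, Cypt12 with 1208 ± 123 RPKM in EES and Cypt3 with 478 ± 48.0 RPKM in LES. In EES against RS, H2bl1 rose by 5.50 on the log2 scale (adjusted p = 1.09e-07), Cypt3 by 3.74 (adjusted p = 7.73e-06), Cypt12 by 3.72 (adjusted p = 5.21e-06) and Fabp9 by 1.09 (adjusted p = 0.0389). The closest relatives of the 8 in that list were named after their values had been seen. Cylc1, the X-linked cylicin, averaged 62.7 ± 9.42 RPKM in EES and 9.94 ± 1.33 RPKM in RS, and Actrt1, an X-linked actin-related gene, 73.9 ± 22.7 RPKM in EES and 4.46 ± 1.43 RPKM in RS; both rose (2.65, adjusted p = 3.29e-05, and 4.04, adjusted p = 3.14e-06). The actin-like gene Actl11 also rose (4.13, adjusted p = 1.07e-06), with 224 ± 72.4 RPKM in EES and 12.5 ± 3.05 RPKM in RS. Actl10, another actin-like gene, had 10.5 ± 14.2 RPKM in EES and 15.1 ± 2.32 RPKM in RS with no call (-1.51, adjusted p = 0.0756). Its EES mean was 2.35 RPKM without replicate 2, which had 26.9 RPKM, and it then fell (-2.69, adjusted p = 1.52e-05), as it did in LES against RS (-2.59, adjusted p = 0.00557). The 3 that fell with all libraries were Dpy19l2, which anchors the acrosome from the inner nuclear membrane (-3.22, adjusted p = 0.000787), and the acrosomal zona-binding genes Zpbp (-2.56, adjusted p = 0.00334) and Zpbp2 (-4.66, adjusted p = 0.000702). Without EES replicate 2 these differences were -4.03, -3.63 and -6.09.

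General actins and actin-related genes form the filaments and chromatin complexes of most cells. Of 18 listed, 13 were tested, and in EES against RS 2 rose, 8 fell and 3 were not called, with a median log2 difference of -2.28, where 15.8% of all tested genes rose and 54.9% fell with a median of -1.42. These counts were the same without EES replicate 2, where the median of the list was -2.67, against -1.74 for all tested genes. The 2 that rose were Actb, the cytoplasmic beta actin, with 452 ± 129 RPKM in EES and 115 ± 8.02 RPKM in RS (1.94, adjusted p = 7.59e-06), and Actg2, the enteric gamma actin, with 493 ± 118 RPKM in EES and 16.0 ± 4.67 RPKM in RS (4.96, adjusted p = 1.78e-07). Actg1, the cytoplasmic gamma actin, had 15.9 ± 12.2 RPKM in EES and 244 ± 10.3 RPKM in RS (-4.22, adjusted p = 3.34e-06); without EES replicate 2, at 29.8 RPKM, its EES mean was 9.01 RPKM and the difference -4.81. Actr1a, of the dynactin filament, had 23.5 ± 11.9 RPKM in EES and 106 ± 13.3 RPKM in RS (-2.28, adjusted p = 4.60e-05). Actins are near-identical in coding sequence, so a read may have been given to another copy and the single values are uncertain.

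Among 8 listed capping and profilin genes, 7 were tested, and in EES against RS 2 rose, 4 fell and 1 was not called, where 15.8% of all tested genes rose and 54.9% fell. The counts of the list were the same without EES replicate 2, where its median log2 difference was -2.40, against -1.74 for all tested genes. Capzb, the beta subunit with which alpha subunits such as Capza3 pair, rose, with 137 ± 48.9 RPKM in EES and 24.1 ± 3.90 RPKM in RS (2.45, adjusted p = 3.74e-06). Capza1, another alpha subunit, fell, with 11.6 ± 1.66 RPKM in EES and 71.3 ± 7.99 RPKM in RS (-2.63, adjusted p = 3.92e-06). In RS the mean of Capza3 was 44.7 ± 8.41 RPKM, below that of Capza1. In LES the mean of Capza3 was 486 ± 31.1 RPKM, while Capza1 had 13.9 ± 3.52 RPKM and Capza2, named after its value had been seen, 1.08 ± 0.543 RPKM. Pfn1, the widely expressed profilin, fell by 3.56 on the log2 scale (adjusted p = 1.67e-06), and the testis profilin Pfn4 fell by 2.54 (adjusted p = 0.00109), or by 3.33 without EES replicate 2. Pfn3, the profilin that binds Actrt3, rose by 2.26 (adjusted p = 0.00221), with 37.7 ± 23.7 RPKM in EES and 6.95 ± 0.212 RPKM in RS. Its EES mean was 24.2 RPKM without replicate 2, which had 64.7 RPKM, and the rise then 1.78 (adjusted p = 0.00797).

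Of 5 kelch-domain genes listed as relatives of Ccin, 1 rose, 1 fell and 3 were not called in EES against RS, where 15.8% of all tested genes rose and 54.9% fell. Without EES replicate 2 Kbtbd4 fell as well (-1.26, adjusted p = 2.06e-05). Klhl10, a testis kelch protein required for male fertility in mice, rose by 2.36 (adjusted p = 6.85e-05), with 440 ± 22.3 RPKM in EES and 86.2 ± 13.3 RPKM in RS. Klhl20 fell by 1.60 (adjusted p = 0.00876), but near the floor, with a mean of 0.0574 RPKM in EES. It was highest in LZ, at 5.02 RPKM, and stood at 3.22% of that in RS and 1.14% in EES. The others, with no call in all libraries, were Kbtbd4 (-0.91), Keap1 (-0.95) and Klhl12 (0.65).

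**Figure D4:**
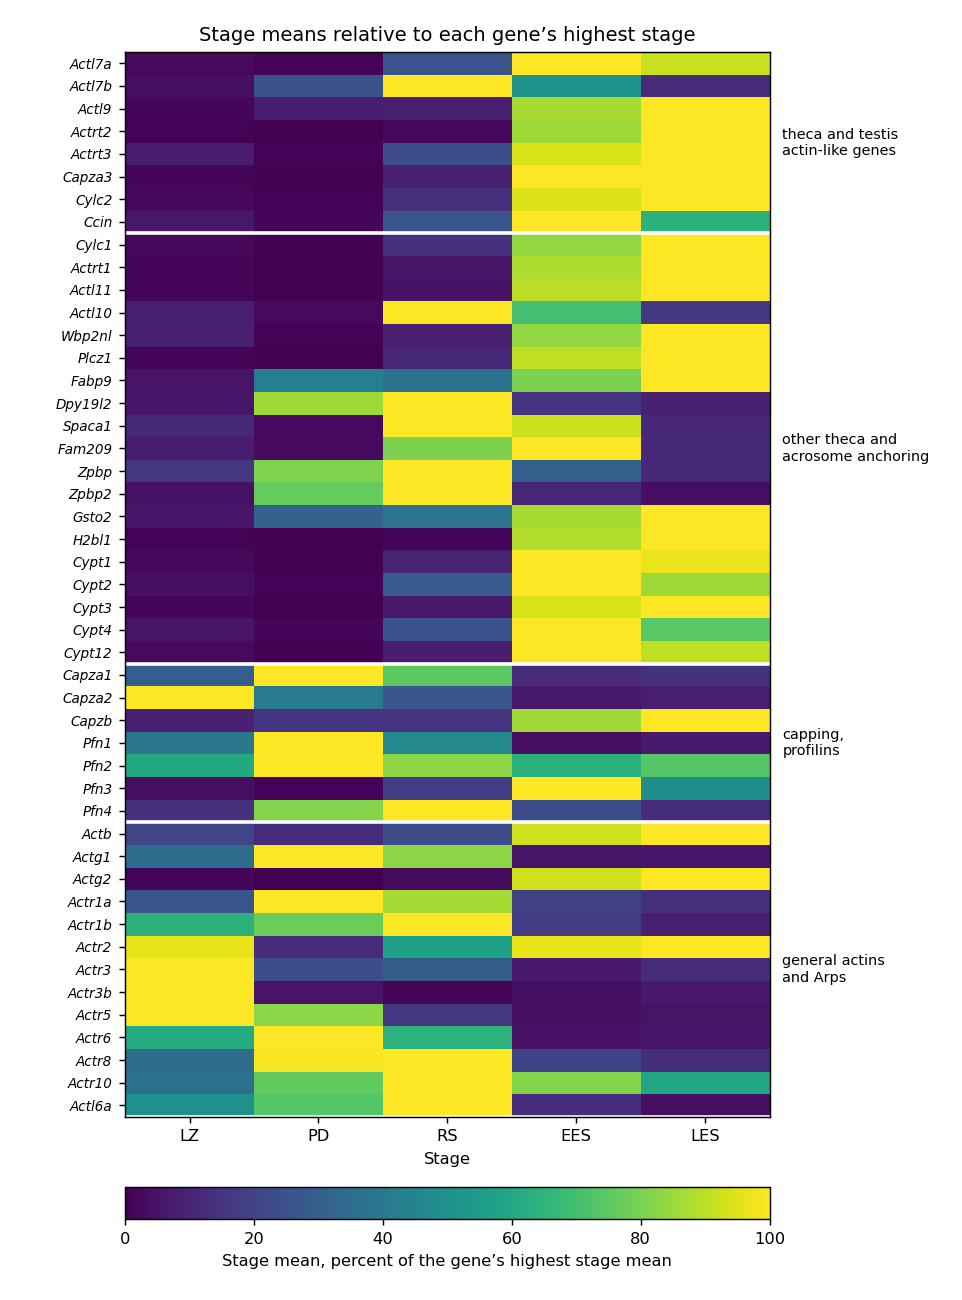
Mean level per stage as a percentage of each gene's highest stage mean, for the 8 genes and for the tested genes of 3 lists; yellow is 100%. Most theca genes are brightest in EES and LES, as are Actb, Actg2 and Capzb, while Actl7b, Zpbp, Zpbp2 and Dpy19l2 are brightest in RS and Actg1, Capza1 and Pfn1 in PD.

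The genes most like each of the 8 were found by the Pearson correlation of deposited log2 values over the 15 libraries, among 6948 tested protein-coding genes with a highest stage mean of at least 8 RPKM. Actl7a was closest to 1700011L22Rik, Klhl10 and Ddi1, Actl7b to 4930562C15Rik, Lrriq4 and Rnf25, and Actl9 to Ctnna3, Rasa3 and Ppp2r5d. Actrt2 was closest to Txndc2, Iqcf3 and Oaz3, Actrt3 to Tuba8, Prss52 and Trp53tg5, and Capza3 to Dnajc5b, Chl1 and Mfap3l. Cylc2 was closest to Stat4, Plcz1 and Bco1, and Ccin to Scp2d1, Pfn3 and Cypt4. These correlations were 0.990 or higher, over libraries that share the same 5 stages. The list of the theca appeared there through Plcz1, the egg-activating phospholipase (39.7 ± 12.8 RPKM in RS), and Cypt4.

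In the single library RS23, 7 of the 8 genes were within 2-fold of the RS mean and Actrt3 was not. Actrt3 had 1.17 RPKM in RS23, against 2.93 to 4.74 RPKM in RS, a log2 difference of -1.63 from the RS mean; 15.8% of tested genes were likewise more than 2-fold lower and 11.4% more than 2-fold higher. Actl9 had 47.9 RPKM in RS23, against 77.2 to 91.3 RPKM in RS, and Actl7b 327 RPKM, against 415 to 468 RPKM, both within 2-fold. Actrt2 (47.5 RPKM), Capza3 (53.8 RPKM) and Cylc2 (10.2 RPKM) lay inside the range of the RS libraries, while Actl7a (73.5 RPKM) lay below it and Ccin (25.03 RPKM) at its upper end (24.97 RPKM). The 6 elongating spermatid markers summed to 281 RPKM in RS23 and 775 to 1611 RPKM in RS. There is no replicate of RS23 and no test.

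In the single library PrmES, Actrt3 and Ccin were more than 2-fold above the mean of the 6 EES and LES libraries, as were 19.5% of tested genes, while 8.24% were more than 2-fold below. Actrt3 had 60.8 RPKM in PrmES, against 12.8 to 16.8 RPKM in EES and LES, and Ccin 183 RPKM, against 41.4 to 132 RPKM. Actl9 had 469 RPKM in PrmES, against 580 to 1117 RPKM, just inside the 2-fold limit with a log2 difference of -0.997. Capza3 (606 RPKM) lay above the range, Actl7a (232 RPKM) and Cylc2 (52.3 RPKM) lay below it, and Actrt2 (1498 RPKM) and Actl7b (120 RPKM) lay inside it. The ratio of Actl7a to Actl7b was 1.93 in PrmES, between that of EES replicate 2 and those of EES replicates 1 and 3. The 6 pachytene markers summed to 3279 RPKM in PrmES, against 1156 to 1906 RPKM in EES and LES. Sums of the round spermatid markers (202 RPKM) and the elongating spermatid markers (75445 RPKM) lay inside the EES and LES range. Prm1 had 4380 RPKM, against 9452 to 28436 RPKM, and Tnp1 43618 RPKM, against 14671 to 36638 RPKM. The part of this make-up in the levels of the 8 genes was not tested. PrmES and RS23 were stained differently from the other libraries and their table columns carry another name prefix, so the sort and the cell type cannot be told apart, and there was no test.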

How the data were processed

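The members and lists were chosen with earlier results of these data known. The submitters' processing notes name Trim Galore, STAR, GRCm38 and mm10, with neither version nor setting. The deposited values are log2 of 100 times RPKM plus 1, a pseudocount of 0.01 RPKM. For the de novo values, exon lengths came from the deposited annotation, and the step between the lowest values gave the library totals. With these totals, 100% of the de novo values above 0 were whole reads within 0.01 read. For the gene table, the exon length of each gene was the smallest at which every library had whole reads. Such a length was found for 100% of the genes above 0, which is no separate check because the length was chosen for it. The deposited annotation (other values: positions) was assembled with StringTie 1.3.4d, per the file headers.

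The filter of 1 RPKM in 3 of 15 libraries left 13260 genes. A model with 5 stage means was fitted in limma 3.58.1 (R 4.3.3, eBayes with trend) to all 15 libraries and tested on simulated data. Single libraries were described against a 2-fold limit. Alternatives were the pseudocount, filters, centring, quantile normalization, reads in genes, no trend, the replicate block, de novo models and each library left out. Libraries of the same replicate number in different stages showed no sign of pairing (correlation of deviations -0.25 to 0.24, over 0.1 in 4 of 30 pairs). For unlike numbers it was -0.29 to 0.31, over 0.1 in 10 of 60 pairs. These correlations cannot tell whether stages were sorted from the same animals.

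Named genes were the 8, the 4 with the highest stage mean of each list, the 3 most correlated with each of the 8 and stage checks; Cylc1, Actrt1, Actl10, Actl11, Spaca1, Fam209, Plcz1, Dpy19l2, Zpbp, Zpbp2, Capza2, Pfn3 and Klhl20 were added after their values had been seen. Sequences and gene positions come from RefSeq and GENCODE on GRCm38; promoter windows were matched by symbol. Protein sequences were not used here. The motif TGATGTCA was added after the data were seen.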

Additional observations from a re-analysis of the deposited data

How the results depend on the processing

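Of the 1200 recomputed log2 values of the 8 genes, 1155 kept their direction and their side of the threshold. A further 26 kept the direction and lost the call, and 19 changed sign. These values include each gene's range of stage means, which is never negative and could not change sign. Leaving out a library of a stage not compared could not move a log2 difference either. In RS against PD, Actl7b stayed at 2.022 without LZ replicate 2, where only the SE and the adjusted p changed. The count of 1155 thus includes values whose direction was fixed in advance. Of the sign changes 1 had a call: in PD against LZ, Actl7a was 1.87 with the de novo models, whose Actl7a locus reaches across Actl7b, and with those models its calls in EES against RS and LES against RS were lost. The others had no call. In RS against PD, Actl9 was -0.099 with median centring and -0.013 with quantile normalization. In LES against EES, leaving out EES replicate 2, alone or with LZ replicate 3, gave 0.14 for Actl7b, -0.025 for Actl9, -0.055 for Actrt2, -0.078 for Capza3 and 0.050 for Ccin; Capza3 was also -0.10 with quantile normalization, -0.0098 scaled to reads in genes, -0.046 without LES replicate 1 and -0.0014 with the de novo models, and Cylc2 was -0.0086 without EES replicate 1 and -0.020 without LES replicate 2. With a library left out, these differences ranged from -1.87 to 0.14 for Actl7b, -0.025 to 0.45 for Actl9, -0.055 to 0.50 for Actrt2, -0.078 to 0.048 for Capza3, -0.020 to 0.25 for Cylc2 and -0.79 to 0.050 for Ccin. The count of the 8 genes that fell in EES against RS, 1 with all libraries, was 0 with median centring and 0 to 1 with a library left out. In PrmES, 2 genes were more than 2-fold lower with median centring, against 0 as deposited; the cause was not tested. The replicate block changed no call of the 8 genes, with 7 rises in EES against RS as without it. Counts over all genes also moved, but the settings tested unlike numbers of genes. These were 13260 as deposited, 7168 with the filter of 8 RPKM, 23262 with no filter and 21515 with the de novo models. The ranges below are counts and not shares of the genes tested. In PD against LZ, rises ranged from 2375 (filter of 8 RPKM) to 5726 (de novo models), with 3375, and falls from 1941 to 8189 (no filter), with 4745. In RS against PD, rises ranged from 1566 to 6490, with 3107, and falls from 875 to 3166, with 2017. In EES against RS, rises ranged from 1245 to 4957, with 2096, and falls from 3715 to 10182, with 7286. In LES against RS, rises ranged from 1295 to 5184, with 2303, and falls from 3650 to 10440, with 7340. In LES against EES, rises ranged from 0 to 225 and falls from 0 to 4. Rises made up 41.6% of the calls in PD against LZ, 60.6% in RS against PD and 23.9% in LES against RS as deposited, and 53.0%, 49.9% and 56.2% with median centring. Depth limits Actrt3 in PD, with 22, 23 and 84 reads.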
